A study of Coprinopsis cinerea AmutBmut pab1-1 with 201 samples.

Results

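Oidia, the asexual spores of the inky cap mushroom Coprinopsis cinerea, were compared after 18 h of germination with oidia at 0 h. The comparison rests on 6 of the 201 RNA libraries of the series, 3 labelled 0 h and 3 labelled 18 h, which were taken by their titles and column names. All libraries came from 1 strain, AmutBmut pab1-1, so both groups carry mutations in both mating type factors and the pab1-1 mutation, which makes growth depend on para-aminobenzoic acid. The labels name no agent for either group. The sources used here do not give the germination medium, the temperature or the share of spores that had put out a germ tube by 18 h. The other 195 libraries cover basidiospores, dark-grown and light-induced mycelium, hyphal knots, primordia, sclerotia, starvation and stresses. Of these, basidiospores at 0, 4, 8 and 12 h of germination, 3 libraries each, share the model fit with the oidia and stand beside them below.

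Oidia are single-celled, thin-walled spores that form on specialised aerial hyphae, while basidiospores are the sexual, thick-walled and pigmented products of meiosis in the mushroom cap. The AmutBmut strain behaves like a mated fungus without a partner, yet as a homokaryon it still makes oidia. A fungal spore that germinates takes up water, swells, resumes transcription and translation, and extends a germ tube that branches into a mycelium. Resting fungal spores commonly carry stored messenger RNA and stress-protective proteins, which are turned over as growth begins.

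The deposited values are counts of 3′ end reads per gene, and the total was 6242146, 3842222 and 6150106 in the 0 h libraries and 9041792, 10110108 and 10107741 in the 18 h libraries. Over genes, libraries of 1 group correlated at 0.967 to 0.988 on the log2 scale. Whether the 3 libraries of a group stem from different cultures is not stated. An edgeR p-value here rests on the spread within groups over all 18 oidial and basidiospore libraries of the fit. It reflects nothing beyond that spread, which may be technical. Of 13617 counted genes, 11272 passed the filter on low counts and were tested. A gene was called where edgeR's quasi-likelihood test gave a Benjamini-Hochberg adjusted p under 0.05 and the fold was 2 or more. Levels are CPM, counts scaled to a common library size, changes are log2 values of 18 h minus 0 h with their standard error, and coordinates are those of the authors' CopciAB V2 annotation. No file pairs the gene numbers with names or products, so genes are described by number, position, size and behaviour, and the label "oidia" could not be checked against marker genes. In bulk RNA, fewer cells of a kind and less RNA per cell cannot be told apart.

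The change was large and ran to the same extent in both directions. Of the 11272 tested genes 53.0% were called, 26.7% higher and 26.3% lower at 18 h. Changes of 8-fold or more were called in 794 genes that rose and 753 that fell, and changes of 64-fold or more in 65 and 66. The median change over all tested genes was 0.03 (log2). That balance depended on the scaling: 50.4% of the calls were higher with TMM factors, 44.7% with RLE factors and 42.4% with upper quartile factors, which moved the median change to −0.12 and −0.20. The 3 libraries of one group all lay above the 3 of the other in 7535 genes, or 66.8% of those tested. The median SD of a gene's log2 CPM was 0.317 among the 0 h libraries and 0.263 among the 18 h libraries.

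**Figure D1:**
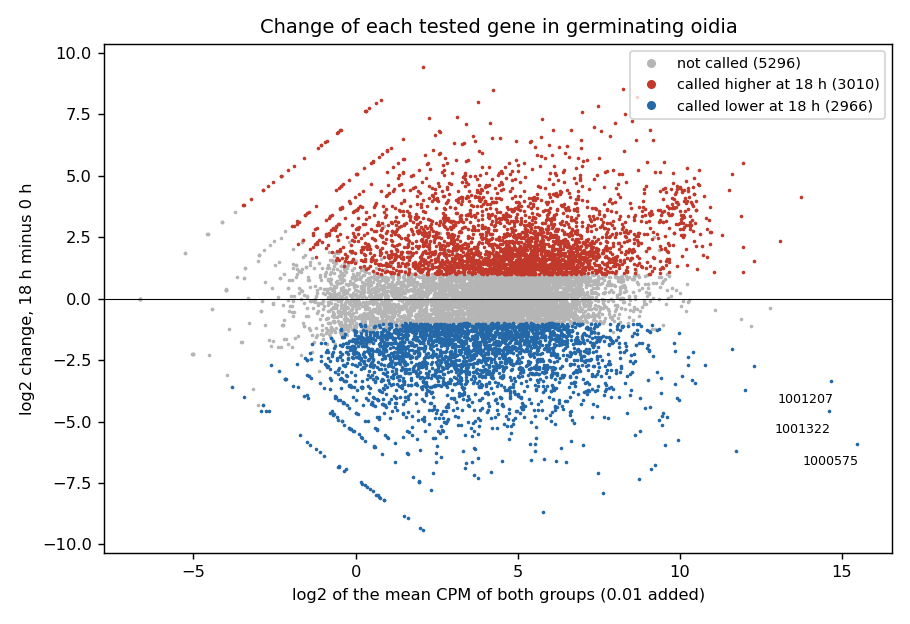
Log2 change of each of the 11272 tested genes (18 h minus 0 h, vertical axis) against log2 of its mean CPM over both groups (horizontal axis), with 3010 genes called higher in red and 2966 called lower in blue. The 3 labelled genes, the most abundant at 0 h, lie at the far right and low, and the straight diagonal rows at the left are genes with few or 0 counts in one group.

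At 0 h the transcript pool was dominated by 3 short genes. CopciAB_1000575.T0 (scaffold 3, 185693 to 186730, 3 exons, 136 residues) stood at 70785, 109580 and 84710 CPM in the 0 h libraries and at 2256, 904 and 1271 CPM at 18 h. It fell by 5.90 ± 1.02 (log2, SE; adjusted p = 0.000167, edgeR quasi-likelihood test). The groups did not overlap, and the lowest 0 h library was above every 18 h library by more than an order of magnitude. CopciAB_1001322.T0 (scaffold 6, 672203 to 672703, 3 exons, 78 residues) went from 40667, 55927 and 45934 CPM to 3121, 1033 and 1824 CPM, a change of −4.58 ± 1.34 (adjusted p = 0.00858, edgeR). CopciAB_1001207.T0 (scaffold 5, 2737682 to 2737950, 3 exons, 52 residues) went from 43862, 52000 and 47007 CPM to 7218, 3340 and 3508 CPM, a change of −3.34 ± 0.92 (adjusted p = 0.00563, edgeR). In all 3 genes every 0 h library lay above every 18 h library, and 18 h library 1 kept the highest 18 h level. For CopciAB_1001207.T0, 79.0% of its nonzero values over the series were not whole numbers, which can arise where loci divide a read between them, so its level is uncertain.

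Together these 3 genes took 20.1%, 27.9% and 23.9% of all counts in the 0 h libraries, and 1.42%, 0.548% and 0.683% in the 18 h libraries. No other group came near these levels. On a scale common to all 201 libraries, the highest mean of any group other than oidia was 457 CPM for CopciAB_1000575.T0 and 182 CPM for CopciAB_1001322.T0, both in basidiospores at 0 h. It was 603 CPM for CopciAB_1001207.T0, in basidiospores at 8 h. For all 3 genes the oidia at 18 h, though far below those at 0 h, still ranked second among the 67 groups. All 3 were also called lower in basidiospores at 12 h than at 0 h, from a far lower level. There CopciAB_1000575.T0 went from a mean of 459 CPM at 0 h to 8.05 CPM at 12 h, a change of −5.86, and the difference between the changes in the 2 kinds of spore was −0.05 ± 1.26 (adjusted p = 0.98, edgeR). For CopciAB_1001322.T0 the basidiospore change was −3.26 and the difference −1.32 ± 1.66, and for CopciAB_1001207.T0 they were −2.89 and −0.46 ± 1.20, so these differences were not called but have wide errors.

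The next 3 genes in abundance at 0 h included a pair of neighbours on scaffold 8. CopciAB_443932.T0 (468702 to 469315, 3 exons, 105 residues) went from 4934, 10965 and 10160 CPM to 287, 594 and 2973 CPM, and CopciAB_443931.T0 (467406 to 468051, 3 exons, 108 residues) from 6302, 8984 and 7917 CPM to 209, 264 and 1271 CPM. Their changes were −2.76 ± 0.76 (adjusted p = 0.00509, edgeR) and −3.73 ± 1.15 (adjusted p = 0.0115, edgeR). The groups did not overlap in either gene, and in both genes 18 h library 3 held several times the level of the other 18 h libraries. Without that library the changes were −4.29 and −5.02. Unlike the 3 genes above, this pair was as high in mycelium under osmotic stress (2 h in 10% sorbitol), with group means of 8167 and 8033 CPM. The other, CopciAB_1001576.T0, lay between the pair in mean level at 0 h. This gene (scaffold 7, 1546151 to 1546972, 4 exons, 48 residues) was not called, at 6725, 9077 and 8105 CPM before and 5821, 6149 and 6408 CPM after (−0.38, 95% interval −0.83 to 0.07). Of its nonzero values 94.0% were not whole.

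The 6 most abundant genes at 18 h encode 51 to 460 residues, and their levels were below those of the leading 3 at 0 h. CopciAB_390376.T0 (scaffold 1, 2607653 to 2609819, 9 exons, 460 residues) rose from 2201, 878 and 1293 CPM to 21520, 34909 and 21541 CPM, by 4.16 ± 0.30 (adjusted p = 1.43e-10, edgeR). At 0 h the oidia held the lowest level of this gene among the 67 groups and at 18 h the highest, while basidiospores had 17036 CPM at 0 h and 18273 CPM at 12 h. No change was called in basidiospores (0.10, adjusted p = 0.74, edgeR), and the difference between the 2 changes was 4.06 ± 0.39 (adjusted p = 1.61e-08, edgeR). The level of this gene is uncertain too, since 73.1% of its nonzero values were not whole.

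CopciAB_454076.T0 (scaffold 10, 1048707 to 1049347, 3 exons, 107 residues) rose from 191, 161 and 150 CPM to 6270, 7689 and 9093 CPM, by 5.52 ± 0.26 (adjusted p = 9.65e-13, edgeR). It was lower in oidia at 0 h than in any other group, and at 18 h it still ranked only 58 of 67, so its rise led to a level low among these samples. Its highest group mean, 50145 CPM, was in the liquid control mycelium, and 89.5% of its nonzero values were not whole. CopciAB_167773.T0 (scaffold 2, 2768233 to 2770103, 4 exons, 432 residues), which overlaps a gene on the other strand, rose from 1152, 415 and 433 CPM to 6384, 7522 and 6773 CPM, by 3.37 ± 0.45 (adjusted p = 3.03e-06, edgeR). This one was highest of all groups in oidia at 18 h. The groups did not overlap in any of these 3 genes.

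CopciAB_392894.T0 (scaffold 7, 1119883 to 1121208, 4 exons, 289 residues) rose by 2.08 ± 0.30, from 1669, 1151 and 1742 CPM to 4944, 7043 and 7340 CPM (adjusted p = 2.8e-06, edgeR). CopciAB_324608.T0 (scaffold 4, 2174822 to 2176105, 7 exons, 142 residues) rose by 1.51 ± 0.22, from 1950, 2978 and 2848 CPM to 6106, 8676 and 7417 CPM (adjusted p = 2.63e-06, edgeR). CopciAB_1002784.T0 (scaffold 20, 109 to 264, 1 exon, 51 residues) rose by 2.35 ± 0.74, from 2409, 2821 and 3417 CPM to 10031, 17432 and 16627 CPM (adjusted p = 0.0115, edgeR). In all 3 the groups of libraries were separate. The last gene is the least certain: 97.5% of its nonzero values were not whole, and its group mean reached 536920 CPM in mycelium overgrown by Trichoderma.

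**Figure D2:**
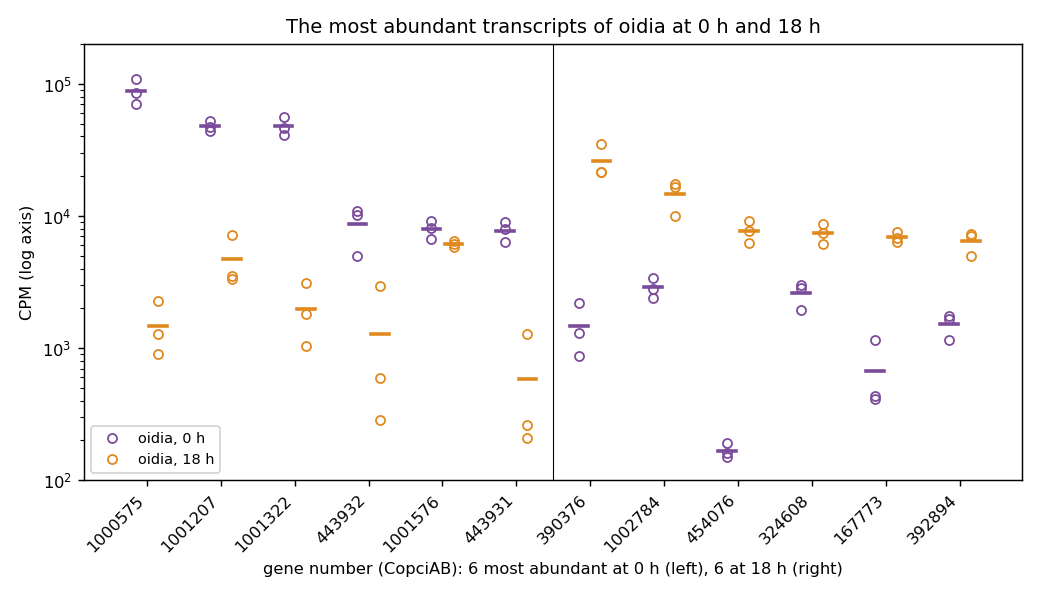
Level in CPM (log axis) of the 6 most abundant genes of oidia at 0 h (left of the line) and the 6 most abundant at 18 h (right), each circle 1 library and each bar the mean of 3. The first 3 genes lie between 40667 and 109580 CPM at 0 h and between 904 and 7218 CPM at 18 h, and CopciAB_1001576.T0 is the only 1 of the 12 that was not called.

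Counts were concentrated in fewer genes at 0 h. The 10 most abundant genes of a library held 25.37%, 34.69% and 30.70% of counts at 0 h and 9.03%, 11.15% and 9.76% at 18 h. Their share fell by 20.27 percentage points, with no overlap, at an exact two-sided permutation p = 0.1, which is the smallest that 3 against 3 libraries can give. The 100 most abundant genes held 44.20 ± 3.25% (SD, n = 3) at 0 h and 33.26 ± 1.15% at 18 h, again without overlap. Below these leading genes the order was the other way round. With each library thinned to 3842039 counts, 10371 ± 80 genes had 5 or more counts at 0 h and 9801 ± 171 at 18 h (SD, n = 3; exact permutation p = 0.1), so more genes were detected at 0 h at equal depth. Without thinning the 18 h libraries, which are deeper, had 47.67 more genes on average (exact permutation p = 0.9).

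The 2 lists of the 100 most abundant genes shared 20 genes. Of the 100 at 0 h, 64 fell, 14 rose and 22 were not called, and 51 were higher in oidia at 0 h than in any other of the 67 groups. Of the 100 at 18 h, 94 rose, 2 fell and 4 were not called, and 9 were highest in oidia at 18 h. Of all tested genes 26.7% rose and 26.3% fell. Each list was chosen by level at its own time, which favours genes that fell in the 0 h list and genes that rose in the 18 h list. Genes with their highest mean in the group used are favoured too, so nothing is read from the contrast between the lists. The median length was 279 residues in the 0 h list and 188 in the 18 h list, and 17 and 19 genes encode 100 or fewer. Among the 2966 genes that fell, 1129 (38.1%) had their highest group mean of the whole series in oidia at 0 h. For all tested genes that share was 12.5%. Of the 3010 that rose, 152 (5.0%) had theirs in oidia at 18 h, a share not counted over all tested genes. A gene called higher in a group is favoured to have its highest mean there, so these counts are descriptive.

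Among the 8 genes with the largest rises, 7 had a still higher mean in some other group of the series. CopciAB_489015.T0 (scaffold 12, 149088 to 150563, 5 exons, 218 residues) rose from 3.59, 2.23 and 2.30 CPM to 722, 892 and 840 CPM, by 8.22 ± 0.56 (adjusted p = 2.54e-10, edgeR). This gene was higher still, at 3766 CPM, in basidiospores at 4 h, and already at 134 CPM in basidiospores at 0 h, so its rise was smaller there by 6.47 ± 0.64 (adjusted p = 5.98e-08, edgeR). CopciAB_322827.T0 (scaffold 3, 3210001 to 3211905, 1 exon, 548 residues) rose from 1.73, 0.609 and 1.33 CPM to 230, 291 and 227 CPM, by 7.58 ± 0.31 (adjusted p = 2.37e-13, edgeR). CopciAB_387721.T0 (scaffold 1, 1208790 to 1209877, 3 exons, 299 residues) rose from 0.496, 0.811 and 0.725 CPM to 111, 123 and 85.7 CPM, by 7.31 ± 0.34 (adjusted p = 9.65e-13, edgeR). These libraries lay far apart by group and close together within it. CopciAB_387721.T0 was a gene of germlings of both kinds: its 2 highest group means were in basidiospores at 12 h (144 CPM) and in oidia at 18 h.

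Other large rises were less even or rested on few counts at 0 h. CopciAB_487630.T0 (scaffold 3, 3565569 to 3566340, 3 exons, 79 residues) went from 3.47, 4.26 and 2.78 CPM to 98.2, 329 and 1479 CPM, a change of 7.52 ± 1.09 (adjusted p = 3.32e-05, edgeR). The 18 h libraries differed among themselves by more than an order of magnitude in this gene, with library 3 the highest, and without that library the change was 5.96. CopciAB_443233.T0 (scaffold 15, 94225 to 95970, 5 exons, 405 residues) had 2 counts in all at 0 h and 1174 at 18 h, a depth-corrected ratio of 401 (95% counting interval 111 to 3311). CopciAB_450946.T0 (scaffold 7, 782931 to 783548, 4 exons, 68 residues) had 2 and 840 counts, a ratio of 287 (79.1 to 2370), and CopciAB_440959.T0 (scaffold 12, 269657 to 271518, 13 exons, 339 residues) 2 and 547, a ratio of 187 (51.4 to 1545). The latter was highest of all groups in oidia at 18 h, though at only 15.7 CPM. The rise of CopciAB_372973.T0 (scaffold 3, 2725261 to 2726328, 5 exons, 215 residues), by 8.52 ± 0.64 in oidia (adjusted p = 2.65e-09, edgeR), was matched by 8.68 in basidiospores at 12 h, and the difference was −0.16 ± 0.79.

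The largest falls were of 2 kinds: transcripts that the oidium held almost alone, and transcripts also present in basidiospores or mycelium. CopciAB_516486.T0 (scaffold 3, 682359 to 683330, 4 exons, 195 residues) fell from 1294, 1066 and 957 CPM to 12.5, 6.38 and 8.51 CPM, a change of −6.92 ± 0.89 (adjusted p = 7.22e-06, edgeR). No group other than oidia had a mean above 21.1 CPM for it. CopciAB_537610.T0 (scaffold 11, 1659073 to 1660660, 6 exons, 336 residues) fell from 900, 899 and 765 CPM to 6.65, 5.24 and 3.73 CPM, a change of −7.36 ± 0.42 (adjusted p = 9.62e-12, edgeR), and its highest mean in other groups was 47.4 CPM, in aerial mycelium 24 h after light. In both genes the groups stood 2 orders of magnitude apart.

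CopciAB_231248.T0 (scaffold 3, 1534262 to 1536388, 9 exons, 514 residues) fell from 431, 380 and 256 CPM to 3.81, 1.5 and 2.39 CPM, a change of −7.11 ± 0.61 (adjusted p = 2.13e-08, edgeR). Basidiospores reached 242 CPM of it at 4 h and it was not called there between 0 and 12 h (−0.90, adjusted p = 0.0921, edgeR). The difference between the changes was −6.21 ± 0.73 (adjusted p = 1.26e-06, edgeR). CopciAB_405851.T0 (scaffold 7, 576927 to 578724, 3 exons, 400 residues), by contrast, was lost from both kinds of spore. It fell from 25.3, 49.7 and 33.5 CPM to 0.489, 0 and 0.287 CPM in oidia, a change of −7.06 ± 0.58 (adjusted p = 1.91e-09, edgeR), and from a mean of 39.0 to 0.555 CPM in basidiospores. Oidia at 18 h had the lowest level of this gene of all 67 groups.

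The other 4 of the 8 largest falls were in genes of 47 to 100 residues. CopciAB_1000615.T0 (scaffold 3, 529048 to 529780, 2 exons, 47 residues) went from 197, 55.6 and 75.4 CPM to 0, 0.667 and 0.0956 CPM, CopciAB_1000633.T0 (scaffold 3, 782784 to 783811, 2 exons, 48 residues) from 17.2, 34.7 and 22.4 CPM to 0.0978, 0.286 and 0.0956 CPM. Their changes were −8.67 ± 0.92 (adjusted p = 0.000112, edgeR) and −7.16 ± 0.44 (adjusted p = 1.33e-11, edgeR). CopciAB_1000746.T0 (scaffold 3, 2479241 to 2479508, 1 exon, 65 residues) went from 19.7, 22.7 and 19.9 CPM to 0.489, 0 and 0 CPM, a change of −6.91 ± 0.69 (adjusted p = 1.18e-07, edgeR). Its 5 counts at 18 h were all in library 1, and without that library the fitted change was −10.7. CopciAB_1001161.T0 (scaffold 5, 1771886 to 1772188, 1 exon, 100 residues) had 217 counts at 0 h and 2 at 18 h, a ratio of 159 (95% counting interval 43.5 to 1321). All 4 had separate groups, and 2 of them, CopciAB_1000615.T0 and CopciAB_1001161.T0, were highest of all groups in oidia at 0 h.

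Some genes were at 0 counts throughout one group. Among the called genes, 28 that rose had no count in any 0 h library and 33 that fell had none in any 18 h library. Taking 3 counts over the group as the floor, CopciAB_439901.T0 (scaffold 4, 714270 to 715828, 2 exons, 448 residues), with 264 counts at 18 h, was at least 60.0-fold higher at 18 h. CopciAB_366954.T0 (scaffold 3, 3566859 to 3568763, 15 exons, 346 residues) was at least 24.1-fold higher and CopciAB_451098.T0 (scaffold 6, 1935414 to 1937078, 5 exons, 303 residues) at least 21.6-fold higher. In the other direction, CopciAB_518267.T0 (scaffold 11, 1836954 to 1837949, 3 exons, 169 residues), at 3.72, 9.53 and 10.5 CPM at 0 h, was at least 80.1-fold lower at 18 h, and no other group had more than 2.84 CPM of it. CopciAB_320571.T0 (scaffold 3, 3666110 to 3667355, 5 exons, 255 residues) was at least 37.1-fold lower and CopciAB_1002429.T0 (scaffold 11, 2096960 to 2097448, 3 exons, 76 residues) at least 35.2-fold lower. CopciAB_1002429.T0 was a minor transcript of oidia, at 3.22, 2.43 and 4.11 CPM at 0 h, but had 9655 CPM in basidiospores at 0 h.

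Short genes fell more often than tested genes as a whole. Of 834 tested genes that encode 100 or fewer residues, 430 (51.6%) fell and 129 (15.5%) rose, against 26.3% and 26.7% of all tested genes, and their median change was −1.24 (log2). The share that fell went down with every step in length, to 33.3% for 101 to 200 residues, 26.5% for 201 to 400, 23.6% for 401 to 800 and 12.8% for over 800, where 30.4% rose. Genes of 1 exon showed the same pattern, with 313 of 638 (49.1%) lower, 93 (14.6%) higher and a median of −1.15. Of 652 genes with 15 or more exons, 135 (20.7%) fell and 199 (30.5%) rose. Each read of this kind marks a 3′ end, and whether transcript length affected these counts was not tested.

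The excess of short genes among those that fell was seen in each part when genes were split by level. When the tested genes were split into 4 equal parts by mean level over both groups, the short genes fell in 46.3%, 72.3%, 56.3% and 33.5% from the lowest part to the highest, and longer genes in 31.3%, 27.6%, 19.0% and 19.8%. Gene numbers in the annotation moved with the result. Of 1167 tested genes numbered 1000000 or above, 596 (51.1%) fell and 175 (15.0%) rose. Of short genes with such numbers 334 of 566 (59.0%) fell, of short genes with lower numbers 96 of 268 (35.8%), and of longer genes with such numbers 262 of 601 (43.6%). Why these models received high numbers is not given in the sources used here, and the part of annotation in the result was not tested. Of 1182 genes of 100 or fewer residues 834 were tested. Genes that are low outside the 0 h oidia may have passed the filter through that group, which favours a fall. The split by level used the same oidial libraries and does not remove this, so the counts for short and high-numbered genes are descriptive.

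**Figure D3:**
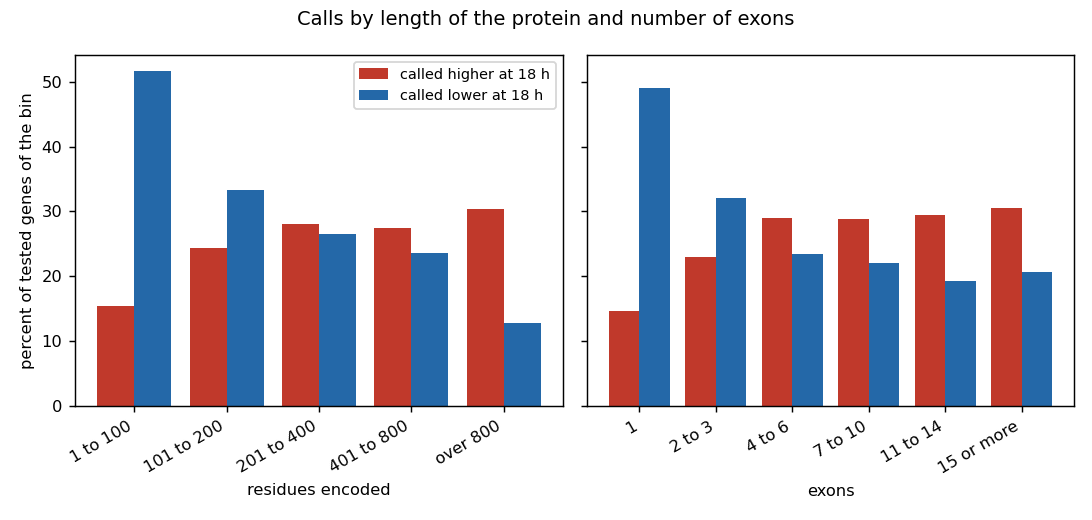
Percent of tested genes called higher (red) and lower (blue) at 18 h, by number of residues encoded (left panel) and number of exons (right panel). Among genes of 1 to 100 residues 51.6% were lower and 15.5% higher, and among those over 800 residues 12.8% were lower and 30.4% higher.

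The longest run of neighbouring genes that fell together lay near one end of scaffold 8. It held 13 consecutive tested genes from CopciAB_1001860.T0 to CopciAB_382169.T0 (2282401 to 2366683), with fitted changes between −5.88 and −1.11 and a largest adjusted p of 0.0179 (edgeR quasi-likelihood test). The next longest runs of lower genes held 8, as did the longest of higher genes. In each of the 13 genes all 0 h libraries lay above all 18 h libraries. Levels were modest, with group means of 1.23 to 81.8 CPM at 0 h and 0.0644 to 9.75 CPM at 18 h.

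CopciAB_407805.T0 (2326216 to 2329044, 6 exons, 751 residues) was the most abundant of the run, at 80.4, 82.2 and 82.8 CPM at 0 h and 10.2, 9.24 and 9.85 CPM at 18 h. It fell by 3.07 ± 0.24 (adjusted p = 3.53e-10, edgeR) and the libraries of each group were nearly equal. CopciAB_547260.T0 (2288582 to 2291275, 6 exons, 728 residues) went from 16.2, 19.1 and 26.5 CPM to 0.978, 2.29 and 0.287 CPM, a change of −4.11 ± 0.50 (adjusted p = 3.36e-07, edgeR). CopciAB_433823.T0 (2333041 to 2335673, 6 exons, 726 residues) went from 7.44, 16.4 and 17.6 CPM to 0.783, 0.762 and 0.383 CPM, a change of −4.40 ± 0.58 (adjusted p = 8.15e-07, edgeR). CopciAB_382940.T0 (2285394 to 2288164, 6 exons, 636 residues), which sets the lower end of the range of changes, had 94 counts at 0 h and 2 at 18 h, a ratio of 68.9 (95% counting interval 18.5 to 577). Of the 13 genes 8 had their highest group mean of the series in oidia at 0 h and the other 5 their second highest.

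In basidiospores at 12 h, 2 of the 13 were lower and 1 was higher, against 29.7% and 35.4% of all tested genes. The difference between the oidial and the basidiospore change was called in 8 of them, lower in oidia in 7 and higher in 1, where 58.0% of all tested genes had a called difference. The run was chosen for its fall in oidia, which favours a lower oidial change, so nothing is read from these counts. The gene with the higher oidial change, CopciAB_455875.T0 (2316780 to 2319019, 3 exons, 561 residues), fell in both, from 20.3, 15.0 and 10.0 CPM to 3.13, 6.38 and 3.83 CPM in oidia and from a mean of 23.4 to 1.18 CPM in basidiospores. Counts are uncertain in part of the run, since 6 of the 13 genes had values that were not whole in at least 50% of the libraries where they had any count. CopciAB_1001860.T0 lost its call without 0 h library 3 (adjusted p = 0.061, edgeR), without 18 h library 1 (0.0713) and without 18 h library 3 (0.072), and CopciAB_337354.T0 fell by less than 2-fold without 18 h library 1 (−0.87).

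The run is the end of a longer stretch with the same behaviour. Between 2153637 and 2366683, a stretch of 213 kb that stops 58 kb short of the last annotated base of the scaffold, lie 56 gene models. Of these, 36 were tested and 31 (86.1%) were lower, with 2 higher. Many of them have a like structure. Of 32 models with 5 to 7 exons and 500 to 950 residues, 24 were tested and all 24 were lower, with fitted changes of −5.88 to −1.51, a median of −3.51 and a largest adjusted p of 0.0306 (edgeR). The other 8 did not pass the filter on low counts. Elsewhere in the genome 767 tested genes had the same structure, of which 147 (19.2%) were lower and 215 (28.0%) higher, with a median of 0.26.

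Of the 24 genes 18 had their highest group mean in oidia at 0 h, against 12.5% of all tested genes. The stretch and the structural class were both chosen after the values had been seen, and genes that are low outside the 0 h oidia may have passed the filter through that group, so these counts are descriptive. Leaving out 1 oidial library at a time left 22 to 24 of the 24 called lower. The 12 tested genes of the stretch with another structure were mixed, 7 lower and 2 higher.

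**Figure D4:**
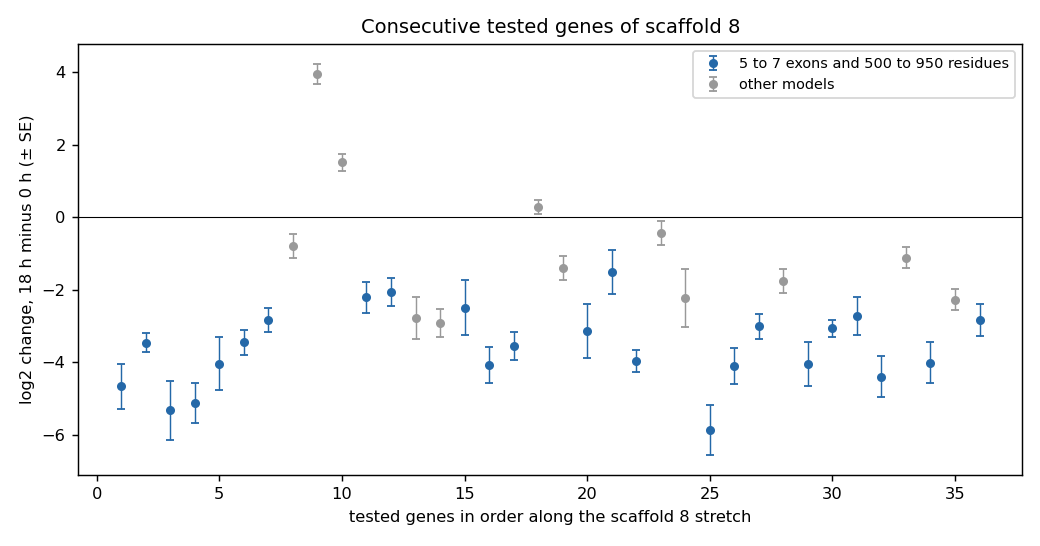
Log2 change (18 h minus 0 h, with its standard error) of the 36 tested genes of a 213 kb stretch of scaffold 8 in their order on the scaffold. The 24 genes with 5 to 7 exons and 500 to 950 residues (blue) all lie below 0, between −5.88 and −1.51, among other genes (grey) of which 2 were called higher.

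The longest runs of genes that rose were shorter. A run of 8 on scaffold 2 (2777738 to 2811447) was tied in length with one on scaffold 6 (480014 to 500642). On scaffold 2, CopciAB_480653.T0 (2808235 to 2811447, 4 exons, 828 residues) rose from 16.5, 8.32 and 9.79 CPM to 99.1, 120 and 79.7 CPM, by 3.09 ± 0.27 (adjusted p = 2.18e-09, edgeR). CopciAB_381746.T0 (2780254 to 2782079, 4 exons, 287 residues) rose from 5.70, 4.46 and 4.83 CPM to 36.1, 38.9 and 31.2 CPM, by 2.81 ± 0.42 (adjusted p = 7.92e-06, edgeR). Both had separate groups and were second highest of all groups in oidia at 18 h. CopciAB_1000458.T0 and CopciAB_373270.T0 of this run overlap each other on the same strand, and the first lost its call without 0 h library 1 (adjusted p = 0.0679, edgeR) or 18 h library 1 (0.0529).

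Neighbours in general showed little common change. Over 4449 pairs of adjacent genes on the same strand that do not overlap, both were called in the same direction in 17.0% and in opposite directions in 11.5%, and their changes correlated at 0.16 (Pearson, across pairs, which share scaffolds and libraries). For 2675 divergent pairs the values were 17.4%, 11.3% and 0.17, and for 1193 convergent pairs 18.3%, 12.0% and 0.09.

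Genes that changed most during the germination of basidiospores, in libraries not used for the oidia, moved the same way in oidia more often than the opposite way. Of 100 genes with the largest rise in basidiospores by 12 h, all tested here, 82 rose in oidia and 1 fell, with a median change of 3.65, or 3.61 with genes at 0 counts put at their bound. Of 98 tested genes with the largest fall in basidiospores by 12 h, 55 fell in oidia and 1 rose, with a median of −1.94, or −1.75 at the bound. The lists of the first 4 h gave 70 higher and 5 lower of 100, with a median of 2.6, and 39 lower and 5 higher of 98, with a median of −0.98. The 2 lists of rises shared 42 genes and the 2 lists of falls 43. Among all tested genes 26.7% rose and 26.3% fell.

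CopciAB_176106.T0 (scaffold 1, 86494 to 89231, 12 exons, 607 residues), of the list that rose in basidiospores by 12 h, went from 7.44, 4.46 and 2.54 CPM to 664, 805 and 737 CPM in oidia, by 7.25 ± 0.36 (adjusted p = 1.65e-12, edgeR). Its highest group mean of the series was in oidia at 18 h. CopciAB_431646.T0 (scaffold 7, 1812935 to 1814233, 5 exons, 313 residues), of the same list, went from 14.6, 10.1 and 13.8 CPM to 1390, 881 and 1150 CPM. Of the list that fell, CopciAB_1002301.T0 (scaffold 11, 598847 to 600796, 3 exons, 562 residues) went from 419, 357 and 597 CPM to 29.1, 35.0 and 43.4 CPM, a change of −3.67 ± 0.49 (adjusted p = 3.83e-06, edgeR). None of these 3 genes had overlapping groups.

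Genes induced by heat or peroxide in mycelium, and those higher in sclerotia than in dark-grown mycelium, fell more often than they rose. Of 72 tested genes raised by 2 h at 47 °C in mycelium, 42 fell (58.3%) and 11 rose (15.3%), with a median of −1.70. Of 66 raised by peroxide, 31 fell (47.0%) and 11 rose (16.7%), with a median of −1.0. Of 79 higher in sclerotia, 46 fell (58.2%) and 10 rose (12.7%), with a median of −1.81. Among all tested genes 26.3% fell and 26.7% rose. The heat and sclerotium lists were both defined over dark-grown mycelium at 132 h, and the peroxide list over the liquid control mycelium. The heat list shares 10 genes with the sclerotium list and 8 with the peroxide list. CopciAB_447085.T0 (scaffold 7, 2588066 to 2588500, 2 exons, 84 residues), of the heat list, fell from 227, 363 and 275 CPM to 14.1, 13.4 and 40.8 CPM, a change of −3.66 ± 0.72 (adjusted p = 0.000433, edgeR). CopciAB_446784.T0 (scaffold 6, 2699049 to 2699939, 4 exons, 185 residues) fell from 204, 260 and 313 CPM to 13.1, 18.0 and 43.8 CPM, a change of −3.38 ± 0.43 (adjusted p = 1.65e-06, edgeR). Both were higher in oidia at 0 h than in any other group, heat-shocked mycelium included. The sclerotium list includes CopciAB_1000575.T0 and CopciAB_1001322.T0, which are among the leading transcripts of oidia at 0 h. No group other than oidia, sclerotia included, had a mean above 457 CPM for the first or 182 CPM for the second.

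One library stood apart in the heat and sclerotium lists. The mean log2(CPM + 1) of the heat list was 4.26, 4.12 and 4.10 in the 0 h libraries and 2.87, 3.13 and 3.96 in the 18 h libraries, so 18 h library 3 lay near the 0 h level. The sclerotium list gave 3.28, 3.33 and 4.06 at 18 h after 4.88, 4.91 and 4.93 at 0 h. Over all tested genes the 18 h values were 4.03, 4.00 and 4.06. Without 18 h library 3 the heat list had 43 lower and 7 higher, and the sclerotium list 53 lower and 8 higher. The peroxide list, at 1.92, 1.70 and 1.78 in the 18 h libraries, did not show this. In the list of old mycelium library 3 was again the highest, at 2.39, 2.32 and 2.84. By smaller margins library 3 was also highest at 18 h in the lists of young mycelium, starvation, hypoxia, light, hyphal knots and basidiospore falls. In both lists of basidiospore rises library 3 was the lowest at 18 h.

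The most abundant called-higher gene of the heat list was highest in the same library. CopciAB_453252.T0 (scaffold 1, 2726161 to 2729453, 8 exons, 908 residues) had 573, 130 and 165 CPM at 0 h and 222, 877 and 2900 CPM at 18 h, with overlapping groups, and rose by 2.20 ± 0.71 (adjusted p = 0.0133, edgeR). What set library 3 apart was not tested.

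Genes induced by hypoxia went the other way. Of 57 tested genes raised by 24 h of hypoxia in mycelium, 31 rose in oidia (54.4%) and 8 fell, with a median of 1.39. For all tested genes the shares were 26.7% higher and 26.3% lower. The mean log2(CPM + 1) of the hypoxia list was 4.74, 4.41 and 4.56 at 0 h and 5.5, 5.87 and 6.21 at 18 h, without overlap. Without 18 h library 3 the hypoxia list had 29 higher and 10 lower, with a median of 1.05. CopciAB_442991.T0 (scaffold 8, 844633 to 846306, 4 exons, 429 residues) rose from 10.7, 7.71 and 8.58 CPM to 601, 761 and 1000 CPM, by 6.44 ± 0.32 (adjusted p = 1.65e-12, edgeR), and had its highest group mean in heat-shocked mycelium. CopciAB_447110.T0 (scaffold 11, 153034 to 156524, 14 exons, 656 residues), of the same list, fell from 145, 104 and 118 CPM to 17.2, 15.6 and 12.1 CPM, a change of −3.03 ± 0.29 (adjusted p = 1.16e-08, edgeR).

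In both lists of genes of starved mycelium more members fell than rose. After 4 h of starvation the list had 27 of 73 tested genes lower (37.0%) and 12 higher (16.4%), with a median of −0.84. After 24 h it had 19 of 58 lower (32.8%) and 10 higher (17.2%), with a median of −0.59, against 26.3% lower and 26.7% higher of all tested genes. The 2 lists shared 16 genes. CopciAB_1001716.T0 (scaffold 8, 608799 to 609556, 2 exons, 85 residues), of the first of these lists, fell from 2690, 1240 and 1820 CPM to 40.9, 23.6 and 42.1 CPM, a change of −5.75 ± 0.68 (adjusted p = 1.92e-06, edgeR). Its highest group mean was in oidia at 0 h, well above starved mycelium.

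The lists of young mycelium, old mycelium, light and hyphal knots moved less to one side. The young mycelium list gave 27 higher (33.3%) and 28 lower (34.6%) of 81, both above the share of all tested genes, and the old mycelium list 15 higher (23.4%) and 17 lower (26.6%) of 64. The light list gave 21 (29.6%) and 18 (25.4%) of 71, and the hyphal knot list 11 (19.3%) and 16 (28.1%) of 57. The medians were 0.28, −0.21, 0.04 and −0.49. Without 18 h library 3 the old mycelium list had 13 higher and 22 lower, with a median of −0.63, and the hyphal knot list 10 and 17, with a median of −1.05. Single members moved far all the same. CopciAB_470571.T0 (scaffold 6, 497061 to 498570, 6 exons, 292 residues), of the light list, rose from 11.6, 7.71 and 8.58 CPM to 894, 1330 and 1030 CPM, by 6.85 ± 0.70 (adjusted p = 3.51e-07, edgeR). CopciAB_432595.T0 (scaffold 2, 3330137 to 3331591, 5 exons, 349 residues), of the hyphal knot list, rose from 2.85, 3.85 and 3.75 CPM to 212, 224 and 133 CPM, by 5.77 ± 0.40 (adjusted p = 8.58e-11, edgeR). Of 203 genes within 50 kb of a scaffold end, 59 (29.1%) were higher and 64 (31.5%) lower. The shares over all tested genes were 26.7% higher and 26.3% lower.

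The oidia were set gene by gene beside basidiospores at 12 h. Both kinds of spore raised 1892 genes, which is 62.9% of those that rose in oidia and 47.4% of those that rose in basidiospores, where 35.4% of all tested genes rose. Both lowered 1406, which is 47.4% of those that fell in oidia and 42.0% of those in basidiospores, where 29.7% of all fell. These counts depended on the scaling, and with RLE factors 1675 genes rose in both and 1639 fell in both. Across the 11272 genes the 2 changes correlated at 0.46 (Pearson) and 0.44 (Spearman), with each gene's change in each kind of spore taken from libraries of its own. With basidiospores at 8 h, where 59.6% of tested genes were called (33.5% higher, 26.1% lower), 1743 genes rose in both and 1151 fell in both, and the Pearson value was 0.39. With basidiospores at 4 h, where 42.8% were called (25.9% higher, 16.9% lower), 1280 rose in both and 720 fell in both, and the Pearson value was 0.30. In 802 genes the calls were opposite, 350 higher in oidia and lower in basidiospores and 452 the reverse. The times differ between the 2 kinds of spore, 18 h against 12 h, and cannot be told apart from the kind.

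The difference between the 2 changes was itself called in 58.0% of the tested genes, 3018 with a higher change in oidia (26.8%) and 3515 with a lower one (31.2%). With upper quartile factors the counts were 2645 and 3927. Genes that rose in both often rose by different amounts. Of those 1892, 967 had no called difference, 227 rose more in oidia and 698 rose more in basidiospores. Of the 1406 that fell in both, 856 had no called difference, 126 fell further in oidia and 424 fell further in basidiospores. A further 768 genes rose in oidia without a call in basidiospores, and the difference was called in 560 of them. For 1108 genes that fell in oidia without a call in basidiospores it was called in 735.

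The 6 genes named for opposite changes show how this looks. CopciAB_539265.T0 (scaffold 4, 1082499 to 1083120, 3 exons, 102 residues) rose in oidia from 0.372, 0.203 and 0.242 CPM to 4.11, 2.86 and 3.16 CPM while it fell in basidiospores from a mean of 105 to 5.23 CPM, a difference of 7.86 ± 0.59 (adjusted p = 4.64e-10, edgeR). Both spores ended at a like low level, and in oidia this gene was among the lowest of all 67 groups at both times. CopciAB_354594.T0 (scaffold 11, 1450487 to 1451388, 3 exons, 131 residues) rose from 0.991, 2.03 and 0.725 CPM to 3.33, 8.48 and 24.4 CPM while it fell in basidiospores from 84.9 to 5.49 CPM, a difference of 7.29 ± 1.06 (adjusted p = 2.42e-05, edgeR). Its 18 h libraries were uneven, with library 3 again the highest.

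CopciAB_423239.T0 (scaffold 4, 3269316 to 3270320, 3 exons, 159 residues) had 189, 16.2 and 12.6 CPM at 0 h and 171, 418 and 2144 CPM at 18 h, with overlapping groups, and rose by 3.64 ± 1.34 (adjusted p = 0.0282, edgeR). In basidiospores it fell from 73.2 to 2.66 CPM, and the difference was 8.44 ± 2.02 (adjusted p = 0.00261, edgeR). Its rise in oidia rests on single libraries: without 18 h library 3 it was 2.03 (adjusted p = 0.171, edgeR), and the call was also lost without 0 h library 2 (0.088) or 0 h library 3 (0.0862). Without 0 h library 1 the fitted rise was 6.01 and kept its call. This gene reached 54516 CPM in heat-shocked mycelium.

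In the other direction, CopciAB_447703.T0 (scaffold 6, 367027 to 368540, 8 exons, 311 residues) fell in oidia from 9.54, 15.0 and 15.2 CPM to 1.37, 0.572 and 1.72 CPM and rose in basidiospores from 0.0287 to 1.01 CPM, a difference of −7.77 ± 1.01 (adjusted p = 9.66e-07, edgeR). CopciAB_510567.T0 (scaffold 13, 296177 to 297241, 6 exons, 161 residues) went from 3.84, 2.84 and 3.87 CPM to 0.391, 0 and 0 CPM, with no count in basidiospores at 0 h and 0.256 CPM at 12 h. Its oidial change was −4.66, or −8.15 without 18 h library 1, which held all 4 counts at 18 h. CopciAB_503848.T0 (scaffold 15, 41056 to 43528, 7 exons, 569 residues) had 29 counts at 0 h and 1 at 18 h in oidia, a ratio of 42.5 (95% counting interval 7.05 to 1736), and rose in basidiospores from 0.0778 to 1.53 CPM. In these 3 genes the oidial groups were separate. For CopciAB_447703.T0 and CopciAB_510567.T0 the spores of both kinds came to a low level from opposite sides. For CopciAB_503848.T0 the levels crossed: the oidial mean went from 1.43 to 0.0326 CPM, while basidiospores ended at 1.53 CPM.

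**Figure D5:**
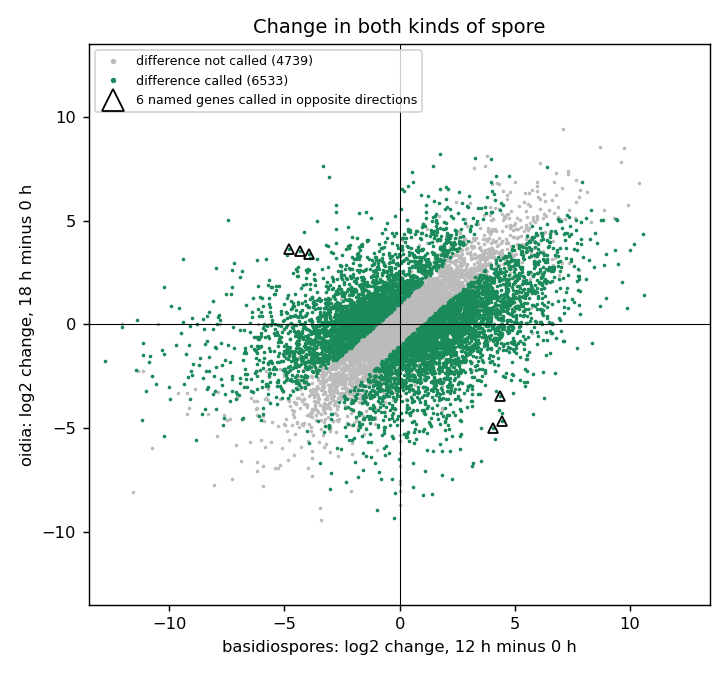
Log2 change in oidia (18 h minus 0 h, vertical axis) against log2 change in basidiospores (12 h minus 0 h, horizontal axis) for the 11272 tested genes, with the 6533 genes whose 2 changes differed by the called test in green. Points spread widely about a rising trend (Pearson 0.46), and the 6 genes named for opposite changes (triangles) lie in the upper left and lower right quadrants.

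Over the mean log2 CPM of 11272 genes, oidia at 18 h correlated at 0.918 with basidiospores at 12 h, 0.902 with basidiospores at 8 h, and 0.828 and 0.825 with mycelium grown in the dark for 60 h and 36 h. Mycelium under copper stress (0.824) and the liquid control mycelium (0.822) came close behind, and the oidia at 0 h ranked 55 among the 66 other groups. Oidia at 0 h correlated at 0.741 with oidia at 18 h, at 0.699 with basidiospores at 4 h and at 0.654 with basidiospores at 0 h. These are descriptions across genes, which are not independent, and the first pair of groups shares no library.

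Some abundant genes were not called. Among the abundant genes with a change under 0.25 (log2), CopciAB_358.T0 (scaffold 13, 450237 to 451249, 4 exons, 206 residues) had 940, 1598 and 1289 CPM at 0 h and 1045, 1090 and 1335 CPM at 18 h, a difference of −0.14 with a 95% interval of −0.77 to 0.48. CopciAB_496875.T0 (scaffold 5, 1391312 to 1391930, 5 exons, 84 residues) had 746, 1208 and 927 CPM and then 1067, 983 and 1297 CPM, a difference of 0.22 (−0.24 to 0.67). CopciAB_500663.T0 (scaffold 11, 319154 to 321389, 10 exons, 500 residues) had 807, 704 and 931 CPM and then 845, 765 and 1046 CPM, a difference of 0.12 (−0.38 to 0.62). The groups overlapped in each, and all of these intervals stay within 1 log2 unit of 0. For CopciAB_415201.T0 (scaffold 5, 973847 to 974996, 4 exons, 218 residues), at 598, 1058 and 734 CPM and then 391, 617 and 1419 CPM, the interval was −0.70 to 0.75. All 4 changed in basidiospores between 0 and 12 h, by 2.06, −1.27, 1.55 and −3.25, and the difference from oidia was called for each.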

How the data were processed

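RNA was measured with QuantSeq 3′ mRNA libraries, sequenced as single-end reads on an Illumina NextSeq instrument, per the labels' protocols. Values are expected counts for each gene, deposited without normalization beside the authors' CopciAB V2 annotation, whose coordinates are 1-based; STAR 2.6.1a and featureCounts are named in the submitters' processing notes. How featureCounts was set for strand and multiply mapped reads, and its version, is not given in the sources used here. Deposited counts that were not whole were rounded before fitting; genes with many such values, and the 3972 genes that overlap another counted gene, hold uncertain counts. Groups were taken from the titles.

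The 18 libraries of oidia and basidiospores were fitted together with edgeR 4.0.16 in R 4.3.3 (TMM scaling, filterByExpr at a minimum count of 10, robust quasi-likelihood, 12 residual degrees of freedom). DESeq2 1.42.0, RLE and upper quartile scaling, no filter, oidial libraries alone, a replicate block and leaving out each oidial library were alternatives. CPM in samples other than the spores, and ranks among the 67 groups, are on a scale common to all 201 libraries. On simulated data with 200 changed genes among 10873, 34% of the 2-fold changes were recovered in the oidial comparison, 82% of the 4-fold ones and 98% of those of 8-fold and of 16-fold, with 6 false calls. The changed genes had a mean of 10 or more counts and were balanced in direction. In the data 53.0% of tested genes were called, so these rates may not carry over. A call needs a fitted fold of 2 or more, which by itself limits the recovery of 2-fold changes. Chi-square per degree of freedom within pairs of 1 group was 9.43 or more, so no pair agreed within sampling noise and none was merged. With 3 counts as the floor, bounds and intervals cover counting error only, since these reads carry no molecular identifiers and are not independent molecules.

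The gene lists hold up to 100 genes with the largest called change between 2 groups that share no library with the oidia (60 for hypoxia), or are read from the annotation. Genes were named by rule: per direction, the 8 with the largest change among those with separate groups and 10 CPM or more, the 3 highest at 0 counts in the other group and the 3 with opposite calls in basidiospores; the 6 most abundant at each time; the longest run per direction; and the 4 most abundant with a change under 0.25. Apart from the most abundant genes and the runs, these overlap no counted gene and have whole numbers in more than 50% of their values. Named members of a list are among those that were called and had the highest CPM; they, and the scaffold 8 stretch, were chosen after their values were seen. Members and lists were chosen with earlier results of these data known. No sequence was used here.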

Additional observations from a re-analysis of the deposited data

Results flagged for a closer look

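Oidia (18 h against 0 h) and basidiospores (12 h against 0 h) differed in their change in many genes, by a test of the difference itself in 1 fit (edgeR's quasi-likelihood test, Benjamini-Hochberg adjusted). The change was higher in oidia in 3018 genes and lower in 3515, or in 2645 and 3927 with upper quartile scaling. Of the genes named for opposite calls, the oidial change exceeded that of basidiospores by 8.44 in CopciAB_423239.T0, where the rise in oidia depended on single libraries, by 7.86 in CopciAB_539265.T0 and by 7.29 in CopciAB_354594.T0 (log2). It lay below by −9.11 in CopciAB_510567.T0, by −9.03 in CopciAB_503848.T0 and by −7.77 in CopciAB_447703.T0. The first 2 of these 3 had 4 counts or fewer in oidia at 18 h. In basidiospores at 0 h the 3 genes had means of 0, 0.0778 and 0.0287 CPM. The sizes of all 3 differences are therefore fitted values and not bounds. No test for outlying libraries was run on groups of 3. As described above, 18 h library 3 stood apart in some lists. At 0 h, chi-square per degree of freedom was 56.07 and 49.89 for the pairs with library 1 and 9.43 for libraries 2 and 3.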

How the results depend on the processing

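DESeq2 called 5967 of the tested genes in oidia, of which 5624 were called in the same direction by edgeR and none in the opposite one. Over RLE, upper quartile and DESeq2 scaling and the omission of the filter, 2569 to 3124 genes were higher and 3068 to 3489 lower. Leaving out 1 oidial library gave 2918 to 3172 higher and 2792 to 3055 lower. Same-numbered libraries at 0 h and 18 h deviated from their group means with correlations of −0.16, −0.13 and −0.01, and not every library was closest to its own number. Deviations from a mean of 3 libraries are tied to each other, so these values cannot exclude pairing. The labels do not say that the numbers pair the libraries. With the replicate block 3002 were higher and 2939 lower. Counts of list members without 1 library, and the oidial libraries alone with the block, were chosen after seeing the data. At a fold of 4 or more the counts were 1546 and 1576. Without genes of uncertain counts 1882 were higher, and the oidial change was below that of basidiospores in 2136 genes, since fewer genes were tested. Without 1 oidial library the difference from basidiospores was higher in 2938 to 3083 genes and lower in 3383 to 3524, and both spores raised 1860 to 1924 and lowered 1316 to 1460. RLE scaling gave 3006 and 3535 for the difference and 1675 and 1639 for both spores, and upper quartile scaling 2645 and 3927 for the difference. With basidiospores at 4 h in place of 12 h, 720 genes fell in both. The share of the 10 most abundant genes changed by −26.21 percentage points among certain genes, and by −22.71 to −18.05 when 1 library was left out. That of the 100 most abundant changed by −12.52 to −9.267. Genes with 5 or more counts changed in number by −570.3 on average when thinned (−657.8 to −487.3 when 1 library was left out), and by 47.67 as deposited, where depth differs by group.

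Of the values of named genes under these alternatives, 878 kept direction and call, 12 lost the call and 15 changed sign. The lost calls were those given for CopciAB_423239.T0, CopciAB_1000458.T0, CopciAB_1001860.T0 and CopciAB_337354.T0, and for CopciAB_423239.T0 also with the replicate block (3.77, adjusted p = 0.0578, edgeR), with oidial libraries alone (3.62, adjusted p = 0.116, edgeR) and with both (4.24, adjusted p = 0.295, edgeR). The sign changes were all in genes near 0. CopciAB_358.T0 was −0.31 to 0.06 without 1 library, CopciAB_496875.T0 was −0.03 with upper quartile scaling, and CopciAB_500663.T0 was −0.03 with DESeq2 and RLE scaling, −0.11 with upper quartile scaling and −0.00 to 0.24 without 1 library. CopciAB_415201.T0 was −0.14 with DESeq2 and RLE scaling, −0.24 with upper quartile scaling, −0.01 with the replicate block, −0.02 with oidial libraries alone, −0.20 with both, and −0.64 to 0.37 without 1 library. The cause of these changes was not tested. Genes of few counts have wide intervals. In simulated data with 200 changed genes, 34% of 2-fold changes were called at this size, a rate that may not carry over to these data.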
